A study of Homo sapiens with 5 samples.

Results

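The genes described here encode the proteins of the mitochondrial ribosome. They were taken from the array platform's annotation as the probe sets whose single gene symbol begins with MRPL or MRPS followed by a number, and each gene is represented by its probe set with the highest mean log2 signal over the arrays. The rule gave 51 genes, read by 64 probe sets, among 11963 genes with a single symbol. Of these, 49 were above the floor for low signals, a log2 signal of 4.45, on all 5 arrays, and MRPL44 and MRPS18C were below it on every array and entered no comparison.

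The cells were TF-1, an established human erythroleukaemia line maintained in GM-CSF and used as a model of erythroid progenitors. Cells carrying MSCV-DbSCL, a GFP-marked retroviral vector with a form of SCL (the TAL1 protein) that cannot bind DNA, were stimulated with Steel factor (SF, the ligand of c-Kit) or with erythropoietin (Epo). Cells carrying the empty MSCV-GFP vector were stimulated with SF, Epo or GM-CSF. Every group spent a night without growth factor before 6 h of stimulation, with SF at 20 ng/mL, GM-CSF at 5 ng/mL and Epo at a dose that the labels do not give. Each of the 5 groups had 1 array, and no group was left without cytokine. The differences below are therefore between single arrays, carry no p-value and have no replicate check. Which of the compared cytokines moved a gene cannot be told apart. In a population of cells, a change in the number of cells of a kind and in RNA per cell cannot be told apart.

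Mitochondria keep a ribosome of their own, which makes the membrane proteins of the respiratory chain that mitochondrial DNA encodes. Its RNAs are mitochondrial, but every one of its proteins is encoded in the nucleus, made in the cytosol and imported. Some of these proteins descend from bacterial ribosomal proteins, and others are found in mitochondria and not in bacteria. Erythroid cells need mitochondria for haem synthesis, parts of which take place inside them. Of the 51 genes, 33 encode proteins of the large subunit and 18 of the small subunit. By the same textbook assignment 31 have a bacterial homologue and 20 are specific to mitochondria. MRPS30 and MRPS18A, named for the small subunit, are proteins of the large one and were counted there.

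The promoters of these genes are shown for members whose signals differed most between arrays in the comparisons below, because promoters of genes for mitochondrial ribosomal proteins are known to hold sites of NRF1, of ETS factors such as GABP, and of YY1. Each line gives the 250 bases before the annotated start of transcription, 5′ to 3′ on the gene's strand, from RefSeq (GRCh38.p14). Capitals mark exact matches, on either strand, to the letters searched: the NRF1 motif, CCGGAAG for ETS factors, AAGATGGCG for YY1, CACGTG and CAGCTG for E-boxes and AGATAA for GATA factors. Where a match ran past the start, only its part before the start is shown. The windows are MRPL57, chr13:21176408-21176657, plus strand; MRPL39, chr21:25607482-25607731, minus strand; MRPL19, chr2:75646533-75646782, plus strand; MRPS2, chr9:135500432-135500681, plus strand; MRPS10, chr6:42217862-42218111, minus strand; MRPL41, chr9:137551629-137551878, plus strand; and MRPL52, chr14:22829637-22829886, plus strand.
MRPL57: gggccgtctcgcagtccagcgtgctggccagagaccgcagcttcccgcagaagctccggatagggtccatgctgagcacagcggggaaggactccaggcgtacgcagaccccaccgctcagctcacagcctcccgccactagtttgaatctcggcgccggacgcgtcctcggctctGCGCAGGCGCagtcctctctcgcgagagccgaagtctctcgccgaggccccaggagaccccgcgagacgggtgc
MRPL39: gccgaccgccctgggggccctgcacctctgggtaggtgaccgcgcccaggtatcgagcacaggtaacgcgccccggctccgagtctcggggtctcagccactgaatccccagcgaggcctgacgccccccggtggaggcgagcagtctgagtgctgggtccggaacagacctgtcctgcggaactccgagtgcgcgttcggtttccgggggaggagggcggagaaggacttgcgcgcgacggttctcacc
MRPL19: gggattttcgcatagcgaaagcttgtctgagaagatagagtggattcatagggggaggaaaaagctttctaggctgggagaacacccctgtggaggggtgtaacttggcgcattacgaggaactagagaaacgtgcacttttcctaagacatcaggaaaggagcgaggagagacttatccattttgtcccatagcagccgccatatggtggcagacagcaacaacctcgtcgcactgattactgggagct
MRPS2: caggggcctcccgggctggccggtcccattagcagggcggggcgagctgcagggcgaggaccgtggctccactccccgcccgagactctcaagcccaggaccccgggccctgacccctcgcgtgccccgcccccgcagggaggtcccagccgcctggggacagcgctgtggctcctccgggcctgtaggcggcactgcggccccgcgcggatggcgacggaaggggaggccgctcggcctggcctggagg
MRPS10: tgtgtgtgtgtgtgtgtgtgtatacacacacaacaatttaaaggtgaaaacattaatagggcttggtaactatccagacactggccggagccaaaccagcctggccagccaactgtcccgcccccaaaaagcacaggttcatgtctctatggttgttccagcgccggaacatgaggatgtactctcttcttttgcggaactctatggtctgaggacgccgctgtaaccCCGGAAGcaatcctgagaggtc
MRPL41: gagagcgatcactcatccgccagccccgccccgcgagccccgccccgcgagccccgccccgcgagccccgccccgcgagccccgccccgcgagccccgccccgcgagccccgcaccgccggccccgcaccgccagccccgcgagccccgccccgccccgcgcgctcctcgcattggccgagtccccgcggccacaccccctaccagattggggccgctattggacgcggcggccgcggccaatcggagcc
MRPL52: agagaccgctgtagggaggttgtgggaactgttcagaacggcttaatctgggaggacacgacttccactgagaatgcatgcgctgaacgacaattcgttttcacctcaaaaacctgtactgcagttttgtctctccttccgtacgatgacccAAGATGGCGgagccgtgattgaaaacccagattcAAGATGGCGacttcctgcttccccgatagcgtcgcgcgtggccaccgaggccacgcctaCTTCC
MRPL57, MRPL39 and MRPL19 were among the 5 highest members under Epo relative to GM-CSF, MRPS2 and MRPS10 among the 5 highest under SF, and MRPL41 and MRPL52 were the lowest under Epo. The promoter of MRPL57 held an NRF1 match, and that of MRPL52 held 2 YY1 matches and an ETS match at the start of transcription. The stretches shown for MRPL39, MRPL19, MRPS2 and MRPL41 held none of these letters, and MRPS2 has a further start whose window holds CACGTG.

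RefSeq windows of 300 bases, 250 before and 50 after the start, were found for 45 of the 51 members, and 9563 genes of the array had one. The ETS letters occurred in windows of 19 of the 45 members (42.2%), against 17.8% of the array's genes and 10.3% of all 35116 windows. The YY1 letters occurred in 8 members (17.8%), against 3.95% of the array's genes and 1.75% of all windows. The NRF1 letters occurred in 4 members (8.89%), against 10.8% of the array's genes and 5.78% of all windows. The NRF1 members were MRPL17, MRPL34, MRPL57 and MRPS33. CAGCTG, an E-box that SCL with its partners can bind, was found in 5 members (11.1%), against 23.4% of the array's genes and 17.9% of all windows. CACGTG was found in 5 members (11.1%), against 1144 of the 9563 array genes and 7.26% of all windows, and the GATA letters in 3 (6.67%), against 9.96% and 10.3%. These are matches of letters and not binding sites, and no test was made of them. For Epo minus GM-CSF, members with the ETS letters had a median log2 difference of 0.12 and those without it one of 0.33. The medians with and without the letters were 0.78 and 0.27 for NRF1, 0.17 and 0.30 for YY1, 0.49 and 0.27 for CACGTG, 0.01 and 0.31 for CAGCTG and 0.01 and 0.28 for the GATA letters, over as few as 3 members with them. The NRF1 median is over MRPL17 (0.86), MRPL34 (0.01), MRPL57 (1.0001) and MRPS33 (0.71). The other probe sets of MRPL57 gave −0.06 and 0.22.

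Before the results, the arrays themselves differed. The hybridization controls, added to every array in the same amount by design of the assay, averaged log2 signals of 9.58 to 10.57, lowest on vector Epo and highest on DbSCL SF. The 18S ribosomal RNA control averaged 7.45 to 9.02, lowest on vector Epo and highest on vector GM-CSF. Beta-actin probe sets at the 3′ end exceeded those at the 5′ end by 1.89 to 3.33 on the log2 scale, lowest on vector SF and highest on DbSCL SF. The part of these differences in the results below was not tested. All 7 of the fixed markers of the line with a single symbol, GATA1, KIT, EPOR, TAL1, CD34, CSF2RA and CSF2RB, were above the floor on all 5 arrays. So were 3 of 4 lymphoid markers, 3 of 6 fibroblast and epithelial markers, 3 of 3 megakaryocyte markers and 1 of 2 monocyte markers. Their part in the results was not tested. TAL1 was 8.29 in DbSCL SF, 8.31 in DbSCL Epo, 8.31 in vector SF, 8.59 in vector Epo and 7.57 in vector GM-CSF cells, and whether its probe set reads the construct was not determined here.

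The members' mean log2 signals had quartiles of 6.25 and 7.97, and the brightest were MRPL3, MRPL57 and MRPL18 and the dimmest MRPS18C, MRPL44 and MRPL19. Among the 49 members above the floor, the median signal was 7.19 on DbSCL SF, 7.20 on DbSCL Epo, 7.09 on vector SF, 7.28 on vector Epo and 6.98 on vector GM-CSF. Vector Epo was the highest of the 5 arrays for 22 of the 49, against 26.9% of all genes. Vector GM-CSF was the lowest for 29 of the 49, against 30.9% of all genes, and the highest for 2, against 26.3%. The smallest range over the arrays was that of MRPS22, which encodes a small subunit protein specific to mitochondria: 8.68 in DbSCL SF cells and 8.66 in the other groups. Its deposited values in those other groups were identical, and such equal values occur for many genes of these arrays. MRPL13, the homologue of bacterial L13, had the widest range, 1.24 on the log2 scale. The plot of members by array shows these patterns.

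**Figure D1:**
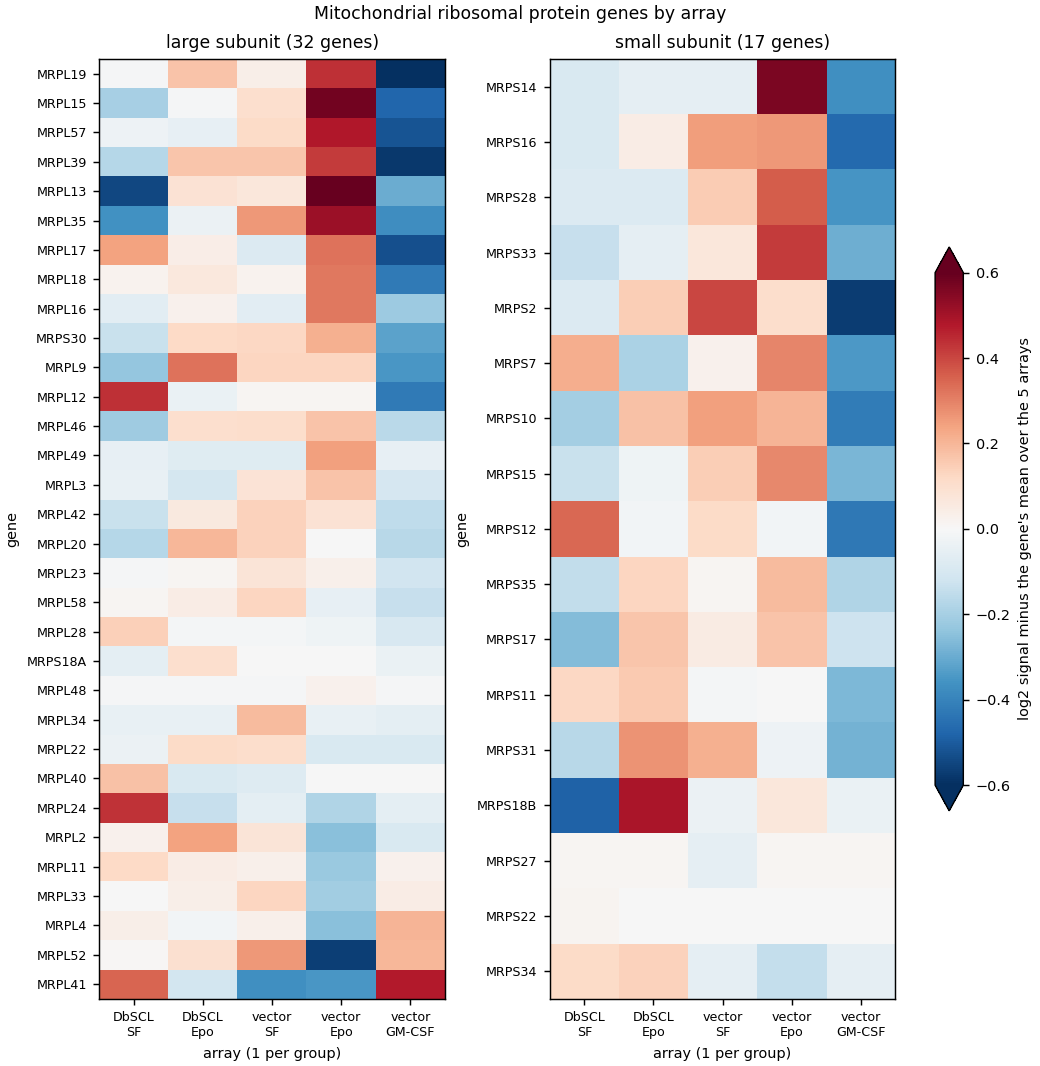
Log2 signal of 49 genes on each of the 5 arrays, minus the gene's own mean over the arrays; rows are genes, split by subunit and sorted by the difference Epo minus GM-CSF in vector cells, and columns are arrays. The vector GM-CSF column is the lowest for 29 genes and the vector Epo column the highest for 22; colours stop at 0.6 in either direction.

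In vector cells under SF the members were higher than under GM-CSF more often than lower. Of 49 members, 40 lay above 0 and 5 below, with a median log2 difference of 0.26. Over all 8553 genes compared the median was 0, with 46.2% above it and 45.7% below. The differences were larger for brighter genes over the whole array, so genes of like signal are given too. These are all 2739 genes with a mean signal between the members' quartiles, and their median was 0.11, with 62.1% above 0 and 30.3% below. At 1.5-fold or more, 7 members were higher (14.3%), against 6.90% of all genes. Of the 25 members between the members' quartiles of signal, 3 were higher by that much, against 10.8% of genes of like signal, which is near that background. MRPL41 was the 1 member lower by that much, against 1.29% of all genes. No member reached 2-fold in either direction, against 0.573% of all genes higher and 0.0234% lower. With quantile normalization the members' median was 0.14, against −0.03 for all genes, and 3 members were 1.5-fold or more higher, against 4.56% of all genes. That normalization left 30 members above 0 and cyclic loess normalization 33, in place of 40. Vector SF minus vector GM-CSF was −0.80 for the 18S control, −0.51 for the hybridization controls and −0.74 for the 3′ excess of beta-actin, and their part in the result was not tested.

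MRPS2, the homologue of bacterial S2, was highest. Its log2 signal was 6.88 in vector SF cells, against 5.90 in vector GM-CSF cells, a difference of 0.97 or 1.96-fold. MRPL39, a large subunit protein specific to mitochondria, had 8.01 in vector SF and 7.26 in vector GM-CSF cells (0.75). MRPS16, in which mutations are known to cause a respiratory chain deficiency, had 7.88 in vector SF and 7.17 in vector GM-CSF cells (0.72). These 3 came from both subunits. MRPL19 followed with 5.15 in vector SF and 4.48 in vector GM-CSF cells (0.67), and so did MRPS10 with 5.60 in vector SF and 4.93 in vector GM-CSF cells (0.67). MRPL35 (0.64) and MRPL57 (0.63) were the other members past 1.5-fold. MRPL19 lay near the floor under GM-CSF. MRPL41, a large subunit protein specific to mitochondria, went the other way, with 5.24 in vector SF and 6.09 in vector GM-CSF cells (−0.84). The next lowest were small: MRPL4 had −0.17, MRPL40 −0.07, MRPS27 −0.07 and MRPL49 −0.02.

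Without replicates the spread was estimated from the DbSCL difference under SF minus that under Epo, by its median absolute deviation within 10 bins of signal. For a difference between 2 arrays it was 0.13 to 0.24 on the log2 scale. This estimate takes any real difference between those comparisons as spread and leaves out a shift that many genes share on 1 array. The members past 1.5-fold exceeded it, and MRPL4, MRPL40, MRPS27 and MRPL49 did not.

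Under Epo more members were past 1.5-fold relative to GM-CSF than under SF, as was a larger share of all genes. Of 49, 38 lay above 0 and 8 below, with a median of 0.30. Over all 8581 genes the median was 0, with 45.3% above it and 48.2% below, and over genes of like signal it was 0.12, with 60.1% above 0 and 34.7% below. At 1.5-fold or more 15 members were higher (30.6%), against 13.2% of all genes. Of the 25 members between the members' quartiles of signal, 6 were higher by that much (24.0%), against 19.4% of genes of like signal, which is near that background. At 2-fold, 3 members were higher, against 3.46% of all genes, and none was lower, against 0.117%. With quantile normalization the members' median was 0.0951, against −0.05 for all genes, and 9 members were 1.5-fold or more higher, against 8.54% of all genes. That normalization left 29 members above 0 and loess normalization 33, in place of 38. This comparison and the one of SF share the vector GM-CSF array, so they are not separate evidence of a direction. Vector Epo minus vector GM-CSF was −1.56 for the 18S control and −0.95 for the hybridization controls, and their part in the result was not tested.

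MRPL19, the homologue of bacterial L19, had a log2 signal of 5.55 in vector Epo cells, against 4.48 in vector GM-CSF cells (1.07, 2.10-fold). MRPL15, which encodes the homologue of bacterial L15, had 8.74 in vector Epo and 7.68 in vector GM-CSF cells (1.06, 2.08-fold). MRPL57, specific to mitochondria and among the brightest members, had 10.31 in vector Epo and 9.31 in vector GM-CSF cells (1.0001), which is just past 2-fold. MRPL39 (0.9986) and MRPL13 (0.99) lay just short of it, with 8.26 and 6.88 in vector Epo cells, against 7.26 and 5.89 in vector GM-CSF cells. With quantile and loess normalization MRPL19 gave 1.11 and 1.15 and stayed past 2-fold, while MRPL15 gave 0.705 and 0.80 and MRPL57 gave 0.70 and 0.72, under it. The 5 highest members all belonged to the large subunit. The lowest were MRPL41, with 5.26 in vector Epo and 6.09 in vector GM-CSF cells (−0.82), and MRPL52, with 5.13 in vector Epo and 5.89 in vector GM-CSF cells (−0.76). MRPL4 (−0.46), MRPL33 (−0.25) and MRPL11 (−0.25) followed. These 5 are also proteins of the large subunit. The count of lower members at 1.5-fold was 2, against 2.45% of all genes.

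**Figure D2:**
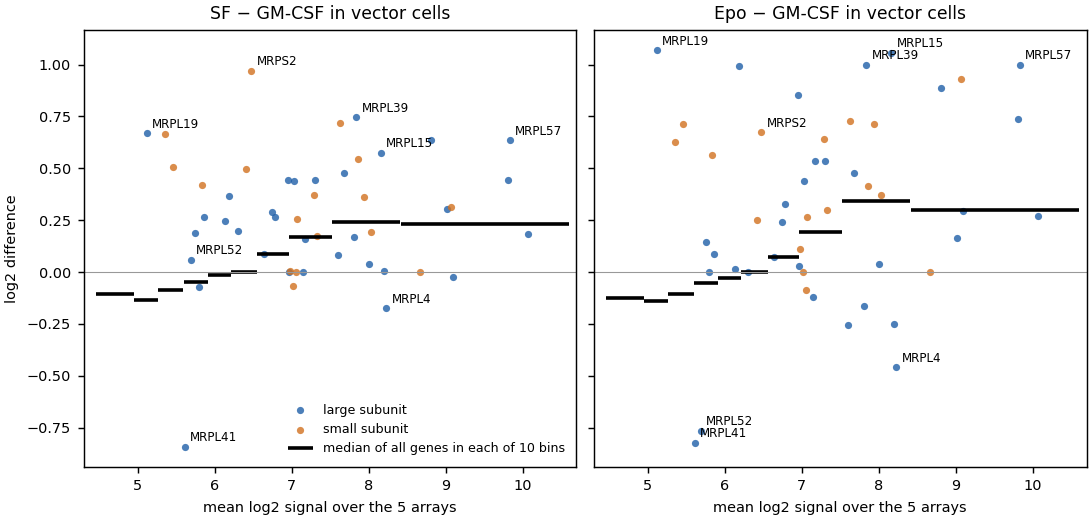
Log2 difference of each of 49 genes (points, coloured by subunit) against its mean log2 signal over the 5 arrays, for SF minus GM-CSF and Epo minus GM-CSF in vector cells; black lines are the medians of all genes in each of 10 bins of signal, the last drawn only as far as the axis runs. In both panels 32 members lie above the line of their bin and 17 below, and the lines lie higher for the brightest genes than for the dimmest.

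Split by role, the small subunit genes with a bacterial homologue had the highest medians of the 4 classes in both comparisons, a difference that was not tested. All 10 compared lay above 0 under SF and all 10 under Epo, each time relative to GM-CSF, with medians of 0.46 and 0.63. Of genes between the members' quartiles of signal 62.1% lay above 0 under SF and 60.1% under Epo. MRPS10, MRPS15 and MRPS28 were dimmer than that range and MRPS14 was brighter, so it does not match all 10 genes. Both comparisons share the vector GM-CSF array. The 10 genes include MRPS12, by its brightest probe set, although its probe sets run in opposite directions, as given further on. Under Epo 6 of these 10 were 1.5-fold or more higher, against 13.2% of all genes. Of genes between the members' quartiles of signal, a range that does not hold MRPS10, MRPS14 or MRPS28, 19.4% were. The 6 were MRPS2, MRPS7, MRPS10, MRPS14, MRPS16 and MRPS28. With quantile normalization MRPS7, MRPS14 and MRPS16 were under 1.5-fold. MRPS14, the homologue of bacterial S14, had 9.63 in vector Epo cells, against 8.70 in vector GM-CSF cells (0.93). The 20 large subunit genes with a bacterial homologue had a median of 0.22 under Epo, with 15 above 0 and 5 below. The 12 large subunit genes specific to mitochondria had a median of 0.16, with 9 above 0 and 2 below, and the 7 small subunit genes specific to mitochondria one of 0.11, with 4 above 0 and 1 below.

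Against each bin's own median over all genes, the members lay higher by a median of 0.18 under SF and 0.14 under Epo, relative to GM-CSF. In each comparison 32 of 49 lay above their bin's median. Genes of the cytosolic ribosome, 55 compared, had medians of 0.07 under SF and 0.02 under Epo, and nuclear genes of respiratory complexes I, III and IV had 0.20 (45 compared) under SF and 0.17 (46 compared) under Epo. The members' medians, 0.26 and 0.30, were above both, and the difference between the lists was not tested.

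Between SF and Epo in vector cells the members differed little. The median of SF minus Epo was −0.02, with 18 members above 0 and 27 below, where 38.2% of all genes lay above 0 and 48.6% below. MRPL52 was higher under SF by more than 1.5-fold, against 0.349% of all genes, with 5.95 in vector SF and 5.13 in vector Epo cells (0.82). MRPL13, with 6.26 in vector SF and 6.88 in vector Epo cells (−0.62), and MRPS14, with 9.02 in vector SF and 9.63 in vector Epo cells (−0.62), were lower, against 1.15% of all genes. The next lowest were MRPL15 (−0.48), MRPL17 (−0.41) and MRPL19 (−0.40), and the next highest MRPL33 (0.34), MRPL2 (0.33), MRPS2 (0.30) and MRPL4 (0.28). With quantile normalization 25 members lay above 0. For 22 of 49 members the SF signal lay above GM-CSF and below Epo, against 28.7% of all genes, and for 1 the order was the opposite, against 19.9%.

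In DbSCL cells SF minus Epo had a median of −0.04, with 14 members above 0 and 31 below, where 46.0% of all genes lay above 0 and 43.5% below. Of genes of like signal 39.1% lay above 0 and 51.3% below, so that most of these also lay below. Of the 25 members between the members' quartiles of signal 24.0% lay above 0 and 68.0% below. These arrays are separate from those of vector cells. MRPS18B, a small subunit protein, was lowest, with 6.498 in DbSCL SF and 7.47 in DbSCL Epo cells (−0.97), but its other probe set gave 6.49 in DbSCL SF and 6.39 in DbSCL Epo cells (0.10). MRPL13 was lower here too, with 5.64 in DbSCL SF and 6.28 in DbSCL Epo cells (−0.63). These were the 2 members at 1.5-fold or more lower, against 2.80% of all genes, and none was higher, against 0.909%. MRPL13 was thus the 1 member lower under SF than under Epo by 1.5-fold in both kinds of cell, against 0.0505% of all genes. With quantile normalization it fell short of 1.5-fold in vector cells. The next lowest were MRPL9 (−0.56), MRPS31 (−0.43) and MRPS17 (−0.42), of which MRPL9 gave 0.08 in its other probe set. The highest was MRPL24, with 7.58 in DbSCL SF and 7.01 in DbSCL Epo cells (0.57), followed by MRPL12 (0.48), MRPL41 (0.46), MRPS7 (0.41) and MRPS12 (0.36).

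**Figure D3:**
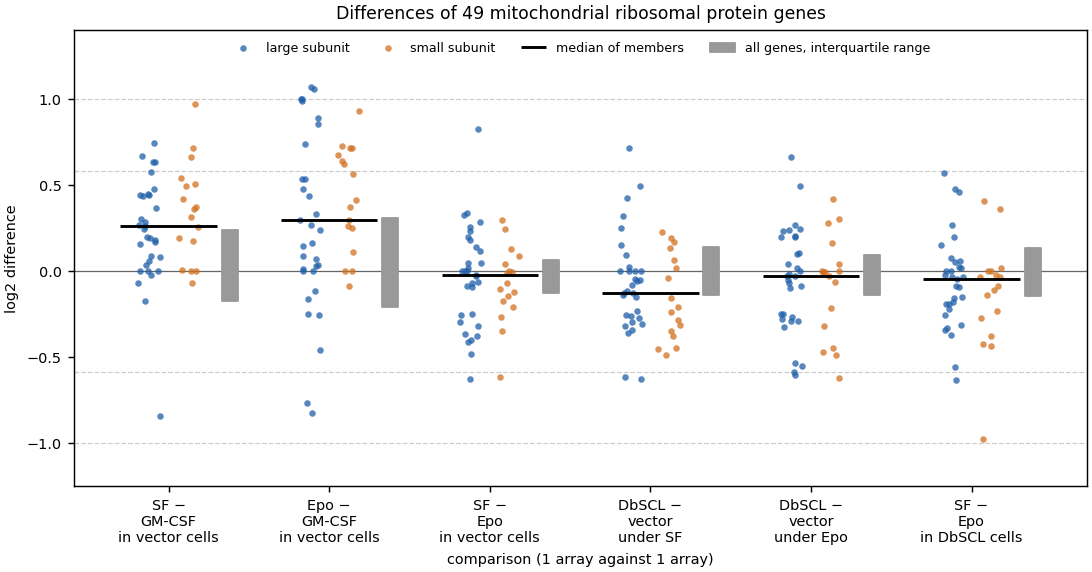
Log2 differences of 49 genes (points, coloured by subunit) in the 6 comparisons, each between 1 array and 1 array; black lines are the members' medians, grey bars the interquartile range of all genes compared, and dashed lines mark 1.5-fold and 2-fold. The medians lie at 0.26 and 0.30 in the comparisons with GM-CSF and between −0.13 and −0.02 in the others.

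DbSCL cells were set against vector cells under each cytokine. Under SF the members had a median of −0.13 in DbSCL minus vector cells, with 15 above 0 and 31 below. Over all genes 46.6% lay above 0 and 41.6% below. Of the 25 members between the members' quartiles of signal 56.0% lay below 0, against 49.2% of genes of like signal. With quantile or loess normalization 21 members lay above 0 in place of 15. MRPL35, the homologue of bacterial L35, was lowest, with 8.44 in DbSCL SF and 9.07 in vector SF cells (−0.63). MRPL13 had 5.64 in DbSCL SF and 6.26 in vector SF cells (−0.62). These were the 2 members lower by 1.5-fold (4.08%), against 3.68% of all genes, so the share of members was near the background. MRPS2 had 6.39 in DbSCL SF and 6.88 in vector SF cells (−0.48). MRPS18B had 6.498 in DbSCL SF and 6.95 in vector SF cells (−0.45), and MRPS10 had 5.15 in DbSCL SF and 5.60 in vector SF cells (−0.45). MRPL41 was the 1 member higher by 1.5-fold, against 1.42% of all genes, with 5.96 in DbSCL SF and 5.24 in vector SF cells (0.72). MRPL24 (0.50), MRPL12 (0.42), which forms the stalk that recruits translation factors, MRPL17 (0.32) and MRPL40 (0.25) were the next highest. The excess of 3′ over 5′ beta-actin signal was larger on DbSCL SF than on vector SF by 1.44, and its part in these differences was not tested.

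Under Epo the median of DbSCL minus vector was −0.03, with 18 members above 0 and 28 below, where 41.5% of all genes lay above 0 and 46.4% below. Of the 25 members between the members' quartiles of signal 52.0% lay below 0, against 50.2% of genes of like signal. MRPS14 was lowest, with 9.02 in DbSCL Epo and 9.63 in vector Epo cells (−0.62). MRPL13 had 6.28 in DbSCL Epo and 6.88 in vector Epo cells (−0.60), and MRPL15 had 8.15 in DbSCL Epo and 8.74 in vector Epo cells (−0.59). These were the 3 members lower by 1.5-fold (6.12%), against 2.78% of all genes. None of the 25 members between the members' quartiles was lower by that much, against 3.91% of genes of like signal. With quantile normalization 27 members lay above 0 and none was lower by 1.5-fold. MRPL35 (−0.55) and MRPL57 (−0.53) were next, but a second MRPL57 probe set gave 0.33. MRPL52 was the 1 member higher by 1.5-fold, against 0.694% of all genes, with 5.79 in DbSCL Epo and 5.13 in vector Epo cells (0.66). MRPL2 (0.50), MRPS18B (0.42), MRPS31 (0.30) and MRPS34 (0.28) followed.

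The comparisons under SF and under Epo use separate arrays. Of 49 members, 19 were lower with DbSCL in both (38.8%), against 25.0% of all genes, 7 were higher in both (14.3%), against 23.4%, and 17 had opposite signs (34.7%), against 28.9%. These shares were not computed for genes of like signal. MRPL13 was 1.5-fold lower in both, against 0.568% of all genes, and MRPL35 came close (−0.63 under SF and −0.55 under Epo). With quantile normalization MRPL13 stayed past 1.5-fold under SF and fell short of it under Epo. No member was 1.5-fold higher in both, against 0.0631% of all genes. For MRPL13 the log2 signals were 5.64 in DbSCL SF, 6.28 in DbSCL Epo, 6.26 in vector SF, 6.88 in vector Epo and 5.89 in vector GM-CSF cells. Each DbSCL array was below the vector array of the same cytokine. The SF minus Epo differences of MRPL13 come from the same DbSCL and vector arrays. For the mean of both comparisons the members' median was −0.08, with 18 above 0 and 31 below, where 49.7% of all genes lay above 0 and 48.5% below. Of the 25 members between the members' quartiles of signal 56.0% lay below 0, against 55.8% of genes of like signal. None of these 25 members was lower by 1.5-fold, against 1.94% of genes of like signal. Of all 49 members, MRPL13 and MRPL35 were the 2 lower by 1.5-fold, against 1.39% of all genes, and none was higher, against 0.234%. With quantile normalization neither gene was past 1.5-fold.

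**Figure D4:**
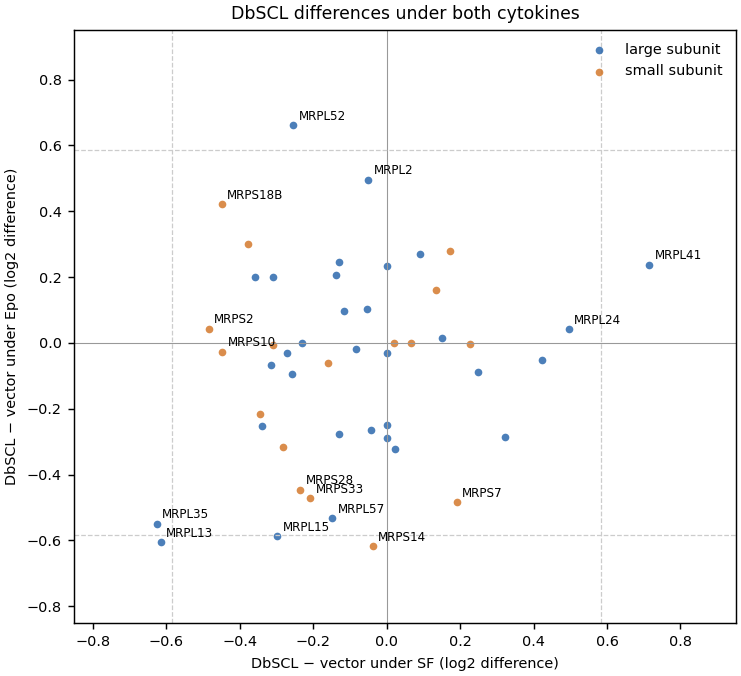
DbSCL minus vector log2 difference under SF (horizontal) and under Epo (vertical) for 49 genes, coloured by subunit, with 1.5-fold marked by dashed lines; genes past 0.44 in either comparison are named. MRPL13 and MRPL35 lie at the lower left and MRPL41 at the right, and 19 genes lie in the lower left quadrant.

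Of the 51 genes, 10 had several probe sets, which did not always run the same way. MRPS12, the homologue of the S12 protein of the bacterial decoding centre, had 4. Its brightest was 7.97 in vector SF, 7.84 in vector Epo and 7.43 in vector GM-CSF cells (0.54 and 0.41 above GM-CSF). A second, dimmer probe set ran the other way, with 5.85 in vector SF, 5.43 in vector Epo and 6.86 in vector GM-CSF cells (−1.01 and −1.44). The third gave 0.31 and 0.02 and the fourth −0.13 and −0.19. No direction for MRPS12 can therefore be given from these arrays. The brightest MRPL57 probe set gave 0.63 under SF and 1.0001 under Epo relative to GM-CSF. Its other probe sets gave 0.12 and 0.15 under SF, and −0.06 and 0.22 under Epo. MRPL9, the homologue of bacterial L9, gave 0.48 under SF and 0.48 under Epo in the brightest and 0.28 and 0.63 in the other, the same direction in both. With DbSCL its probe sets ran in opposite directions, −0.36 in the brightest and 0.11 in the other under SF, and 0.20 and −0.32 under Epo. For MRPS31 the values were 0.50 and 0.25 in the brightest and 0.16 and 0.16 in the other, also the same direction.

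**Figure D5:**
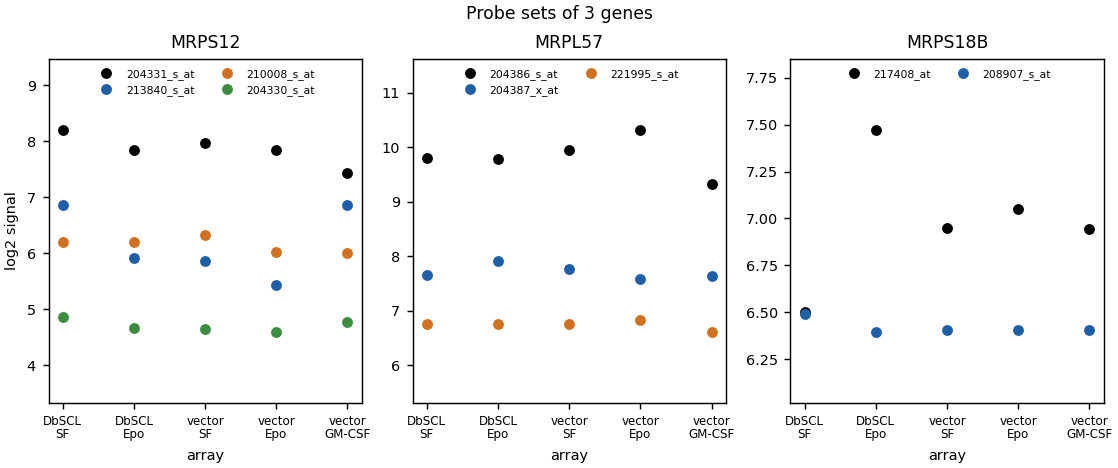
Log2 signal (vertical) of every probe set of MRPS12, MRPL57 and MRPS18B on each of the 5 arrays (horizontal); colours are probe sets, black being the brightest. A second MRPS12 probe set is at 5.43 on vector Epo and 6.86 on vector GM-CSF while the brightest is at 7.84 on vector Epo and 7.43 on vector GM-CSF, and the brightest MRPS18B probe set runs between 6.498 and 7.47 while its other stays between 6.39 and 6.49.

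The MRPS18 genes are paralogs related to bacterial S18 whose proteins occupy different places, that of MRPS18A being in the large subunit. In the counts by role MRPS18C was taken as the homologue and the other 2 as specific to mitochondria. MRPS18A was 7.94 in DbSCL SF, 8.10 in DbSCL Epo, 7.998 in vector SF, 7.998 in vector Epo and 7.96 in vector GM-CSF cells, and no difference exceeded 0.16 in this probe set. Its second probe set gave 0.29 for SF minus GM-CSF, 0.49 for Epo minus GM-CSF, 0.21 for DbSCL minus vector under SF, −0.53 under Epo and 0.54 for SF minus Epo in DbSCL cells. MRPS18B was 6.498 in DbSCL SF, 7.47 in DbSCL Epo, 6.95 in vector SF, 7.05 in vector Epo and 6.94 in vector GM-CSF cells, so that its DbSCL arrays lay on either side of its vector arrays. MRPS18C was between 2.37 and 2.50 on all arrays. Signals of different probe sets cannot be set against each other, so this does not rank the paralogs.

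Some members face another gene across a shared promoter region. For 15 of the 45 members with a RefSeq window, the window overlapped that of a gene on the opposite strand. Of 7 pairs with a compared partner, 3 had the same sign under SF and 2 under Epo, relative to GM-CSF. MRPL46 and MRPS11 are counted there from each side. The other pairs were not all opposite, because a difference of 0 was not counted as the same sign. SARS2, PTCD2 and GGA3, which face MRPS12, MRPS27 and MRPS7, were at 0 under SF, and SARS2 and PTCD2 under Epo. The share among other facing genes was not computed. MRPL46 and MRPS11, one in each subunit, face each other and gave 0.26 and 0.26 under SF and 0.33 and 0.27 under Epo, relative to GM-CSF. With DbSCL minus vector they ran in opposite directions, −0.32 and 0.14 under SF and −0.07 and 0.16 under Epo. MRPS12 faces SARS2, which encodes the seryl-tRNA synthetase of mitochondria and was 0.00 under SF and under Epo, relative to GM-CSF. MRPL49 faces FAU, which encodes a fusion with the S30 protein of the cytosolic ribosome, and these gave 0.30 and −0.05 under Epo. MRPS2 faces PIERCE1, and they gave 0.97 and −0.09 under SF. PIERCE1 lay near the floor on all arrays, between 4.53 and 4.75, which leaves little room for a lower value.

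Other parts of the mitochondrial ribosome and its translation machinery, taken from a list, were read as well. DAP3, a GTP-binding small subunit protein, had 9.06 in vector Epo and 8.45 in vector GM-CSF cells (0.61). PTCD3, also of the small subunit, had 7.003 in vector Epo and 6.70 in vector GM-CSF cells (0.31). GADD45GIP1, of the large subunit, had 5.14 in vector Epo and 5.72 in vector GM-CSF cells (−0.58). The DbSCL minus vector difference of GADD45GIP1 was 0.13 under SF and 0.83 under Epo. Of the 11 translation factor genes on the array, 7 were above the floor, with a median Epo minus GM-CSF of 0.47, 2 of them at least 1.5-fold higher and none lower, against 13.2% and 2.45% of all genes. LRPPRC, which with SLIRP binds and stabilises mitochondrial messenger RNAs, had 9.02 in vector Epo and 7.78 in vector GM-CSF cells (1.23). OXA1L, which inserts proteins into the inner membrane, was 0.59 and the elongation factor gene TUFM 0.47. For the 15 assembly factor genes the same difference had a median of 0.15, with 4 at least 1.5-fold above GM-CSF, against 13.2% of all genes, and none as far below. They were FASTKD2 (0.91), NGRN (0.70), MRM2 (0.67) and MTERF3 (0.66).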

How the data were processed

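RNA of 5 groups of TF-1 cells, 1 sample each, was labelled with biotin and read on Affymetrix arrays, per the labels' protocols. The values are log2 signals that the authors deposited, one for each probe set on each array. The summary method, its software and any normalization are not given in the sources used here, and the log2 unit was inferred from the range of the values, 2.08 to 13.77. Among the 7918 genes above the floor everywhere, 51.1% have an identical value on 2 or more arrays, as do 15 of the 49 members.

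Values were used as deposited. Of 22215 non-control probe sets, 19065 had 1 symbol, 1043 several and 2107 none, and only the first were used. All 51 member symbols were current in the RefSeq gene table. The floor was the 40th percentile of non-control values, anything below was raised to that floor, and genes with at least 1 of the compared arrays above it were compared. With 1 array per group there was no test. A gene was counted at 1.5-fold and at 2-fold. The members, lists, roles and comparisons were chosen with earlier results of these data known. Members named are, per comparison, those at 2-fold and the 5 highest and 5 lowest, besides the brightest, the dimmest, the MRPS18 paralogs and members whose probe sets disagree. Members named for a motif, a role or a facing gene lie outside that rule and were chosen after their values were seen. Counting was tested on simulated data. Alternatives were quantile and cyclic loess normalization (limma 3.58.1, R 4.3.3), median centring, the mean of all probe sets, other floors and a stricter list. Promoter windows are RefSeq's. Python 3.11.15, numpy 2.4.6 and pandas 2.3.3 were used. No column belonged to another sample (0). The number of arrays limits the precision.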

Additional observations from a re-analysis of the deposited data

Results flagged for a closer look

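MRPS18B had DbSCL differences of opposite sign under the cytokines, −0.45 under SF and 0.42 under Epo, each over 2 times the spread estimated without replicates for genes of its signal. The difference between them was not tested. Its other probe set gave 0.09 under SF and −0.01 under Epo. With the mean of both probe sets the values were −0.18 under SF and 0.21 under Epo. No group had enough arrays for a check of samples that lie apart.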

How the results depend on the processing

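No paired analysis was possible because no replicate numbers link the groups, each of 1 array. DbSCL and vector cells were compared within each cytokine and by the mean of both, and an additive fit of construct and cytokine, which takes their interaction as error, was not run. The medians of the members kept their direction under all 7 alternatives, except SF minus Epo in vector cells (0.0033) and DbSCL minus vector under Epo (0.01), which were just above 0 with quantile normalization, where 25 and 27 members lay above 0 in place of 18 and 18. That normalization lowered the median of Epo minus GM-CSF to 0.0951. Quantile normalization gave 3 members 1.5-fold or more higher for SF minus GM-CSF and loess gave 4, in place of 7. For Epo minus GM-CSF quantile normalization gave 9 in place of 15. For SF minus Epo in vector cells, 0 members were lower with quantile normalization and 1 with loess or with the mean of all probe sets, in place of 2. For DbSCL under SF, quantile normalization gave 2 higher in place of 1, and it and loess gave 1 lower in place of 2. For DbSCL under Epo, 0 were lower with quantile normalization and 1 with loess in place of 3. For the mean of both, 0 and 1 were lower in place of 2. For SF minus Epo in DbSCL cells, 1 was higher with quantile normalization or loess in place of 0, and 1 was lower with the mean of all probe sets in place of 2. The cause was not tested. Of 300 recomputed values of named members 297 kept their sign. With the mean of all probe sets MRPL57 gave 0.38 for Epo minus GM-CSF. With quantile normalization it gave 0.70, MRPL15 0.705 and MRPL39 0.66. The stricter list and the floor on all 5 arrays left the same 49 members.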

Other observations

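Genes that transcribe and maintain mitochondrial DNA lay mostly above 0 for Epo minus GM-CSF in vector cells. Of 15 compared, 12 lay above 0 and 1 below, with a median of 0.13, where 45.3% of all genes lay above 0. Genes with a signal between the members' quartiles had a median of 0.12, with 60.1% above 0. At 1.5-fold or more 3 of the 15 were higher (20.0%), against 13.2% of all genes. Of genes with a signal between the members' quartiles 19.4% were, so the count was near that background. TFB2M, a mitochondrial transcription factor, had log2 signals of 7.32 in vector Epo and 6.44 in vector GM-CSF cells (0.88). TEFM, the mitochondrial transcription elongation factor, gave 0.82 and MTPAP, the mitochondrial poly(A) polymerase, gave 0.80. ESRRA, a nuclear receptor that acts on genes of mitochondrial energy metabolism, was the 1 gene lower by that much, against 2.45% of all genes, with 6.43 in vector Epo and 7.31 in vector GM-CSF cells (−0.88). With DbSCL, ESRRA was higher in both comparisons, by 0.66 under SF and 0.42 under Epo. The signal of NRF1, whose letters were searched in the promoters, lay between 5.27 and 5.34 on all arrays. Of 13 compared genes for aminoacyl-tRNA synthetases and amidotransferase subunits of mitochondria, 2 were 1.5-fold or more higher for Epo minus GM-CSF, IARS2 (0.98) and HARS2 (0.94), against 13.2% of all genes, which is near that background.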
